A study of Homo sapiens with 8 samples.

Results

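The G2/M and mitosis genes described here are 43 protein-coding genes whose products take a cell from late G2 through chromosome segregation to cytokinesis. They were chosen by gene symbol, from a list of names, and all 43 were found among the 34164 genes of the deposited values. RNA from Kyse510, an established human esophageal squamous cell carcinoma (ESCC) line, was sequenced from 8 conditions, each as a single library. The conditions of the pharmacological arm were vehicle (DMSO), 7 µM SP2509, which inhibits the histone demethylase LSD1, 7 µM UNC0642, which inhibits the histone methyltransferase G9a, and the 2 inhibitors together, for 2 days. The doses used within the combination are not stated separately. In the genetic arm, Kyse510 cells carried an inducible shRNA (lentiviral vector Tet-pLKO-puro) against LSD1 (shLSD1) or G9a (shG9a), were kept in puromycin for 14 days, and were then left without doxycycline (Dox) or given Dox for 2 days. Each induced library was compared with the uninduced library of the same line, and no library with a nonsilencing hairpin was analysed here, so an effect of Dox itself and an effect of the knockdown cannot be told apart.

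Entry into mitosis is driven by CDK1 bound to cyclin A2 or to a B-type cyclin, which the CDC25 phosphatases activate and the kinases PLK1 and Aurora A promote. The spindle checkpoint holds the anaphase-promoting complex (APC/C) inactive until the kinetochores of all chromosomes are attached to microtubules. Release of the APC/C coactivator CDC20 then leads to the destruction of securin and cyclin B, and separase opens the cohesin rings. The messages of these genes are low in G1 and reach their peak in G2 and M, and many are held down in G0 and G1 by the DREAM complex and switched on later by B-Myb with MuvB and by FOXM1. The promoters of many of them carry a CHR element, with the letters TTTGAA, and CCAAT boxes, which NF-Y binds. The sum of their messages therefore moves with the share of cells in G2 and M, and in bulk RNA fewer cells in G2 and M and less RNA per such cell cannot be told apart.

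The values are FPKM, fragment counts scaled by gene length and by library size. A gene entered a comparison when it reached 1 FPKM in at least 1 of the 2 libraries, and it was called higher or lower when the ratio of FPKM + 1 reached 1.3 in either direction. Fold changes in log2 are of that ratio, treated over control, and understate the change of genes of low level. FPKM ratios, given with an interval in brackets, have no added constant, and the 95% intervals (exact Clopper-Pearson) rest on reads estimated from the FPKM steps and cover counting error only. With 1 library per condition no difference has a replicate check, no test between conditions was possible, and each statement compares libraries. Of all genes, 919 of the 26360 listed for both arms differ in their position between the arms, which shows that the arms were not annotated identically, so levels are compared within an arm only.

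The libraries held 15662035 to 17889466 estimated reads. KDM1A, which encodes LSD1, was at 26.0 FPKM without and 6.29 FPKM with Dox in the shLSD1 line, and EHMT2, which encodes G9a, was at 7.85 and 4.76 FPKM in the shG9a line. Markers of squamous epithelium were present, with 6 or 7 of 7 at 1 FPKM or more in every library, and none of the 7 was at 0. Their summed level was 1041 FPKM in the vehicle library, 4931 under SP2509, 1625 under UNC0642 and 1501 under both, and it was 2181 without and 732 with Dox in the shLSD1 line and 2036 and 1125 in the shG9a line. Summed levels of 5 fibroblast markers ran from 3.23 to 6.93 FPKM and of 3 leukocyte markers from 0.036 to 2.73 FPKM, the lowest under SP2509. The leukocyte sum was 0.962 FPKM without and 2.73 with Dox in the shLSD1 line, and COL1A2, PDGFRB, CD3E, PTPRC or PECAM1 was at 0 in some libraries. The sum of 3 endothelial markers was 3.56 FPKM in the vehicle library, 4.56 under SP2509, 4.93 under UNC0642 and 12.4 under both, and it was 5.54 without and 14.5 with Dox in the shLSD1 line and 3.79 and 6.09 in the shG9a line. Only 1 of these 3 genes reached 1 FPKM in each library, except shG9a with Dox, where 2 did. The part of these marker levels in the results was not tested.

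When both inhibitors were given, the G2/M and mitosis genes were lower as a group, whereas under either hairpin with Dox they were higher. The combination library had 36 of the 43 genes lower and 1 higher than the vehicle library, against 31.7% lower and 31.4% higher among all 13907 genes compared. Past a fold of 2, 19 of the 43 were lower and 0 higher, against 9.57% and 13.0% of all genes. Their median log2 fold change was -0.88, and that of all genes was -0.02. With SP2509 alone, 10 of the 43 were higher and 5 lower, against 21.0% and 39.9% of 13342 genes, with a median of 0.12 against -0.21. Past a fold of 2, 4 were higher and 0 lower, against 8.25% and 13.0%. When ratios were centred on the median of the better expressed genes, which was -0.09, 15 were higher and 4 lower, and 24.6% and 34.9% of all genes. With UNC0642 alone, 3 were higher and 3 lower, against 18.2% and 16.9% of 13244 genes, and the median was 0.06 against -0.01. Rescaled to TPM, 5 were higher and 1 lower, against 26.6% and 21.1% of all genes. No member passed a fold of 2 with UNC0642, against 4.79% higher and 3.12% lower of all genes. These 3 comparisons share the vehicle library.

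In the shLSD1 line with Dox, 24 of the 41 genes compared were higher and 0 lower, against 24.8% and 12.3% of 12970 genes, and the median log2 fold change was 0.48 against 0.13. In the shG9a line, 34 of 41 were higher and 0 lower, against 32.9% and 17.6% of 13080 genes, with a median of 0.65 against 0.18. Past a fold of 2, 4 were higher and 0 lower under shLSD1, against 3.36% and 3.27% of all genes, and 9 were higher and 0 lower under shG9a, against 5.13% and 6.02%. The genes left out were NUSAP1 and PRC1, which were under 1 FPKM in all 4 libraries of the genetic arm. Over all genes that reached 5 FPKM in each of the 2 libraries, the median log2 ratio itself was 0.11 for shLSD1 and 0.14 for shG9a. Centred on that median, 20 and 28 of the 41 genes were higher and 0 lower, and the shares of all genes became 17.0% higher and 16.6% lower in the shLSD1 line and 22.5% and 22.5% in the shG9a line. Together, the 43 genes took 0.546% of the estimated reads in the vehicle library, 0.62% under SP2509, 0.557% under UNC0642 and 0.248% under both. In the genetic arm they took 0.16% without and 0.232% with Dox under shLSD1, and 0.16% and 0.287% under shG9a.

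**Figure D1:**
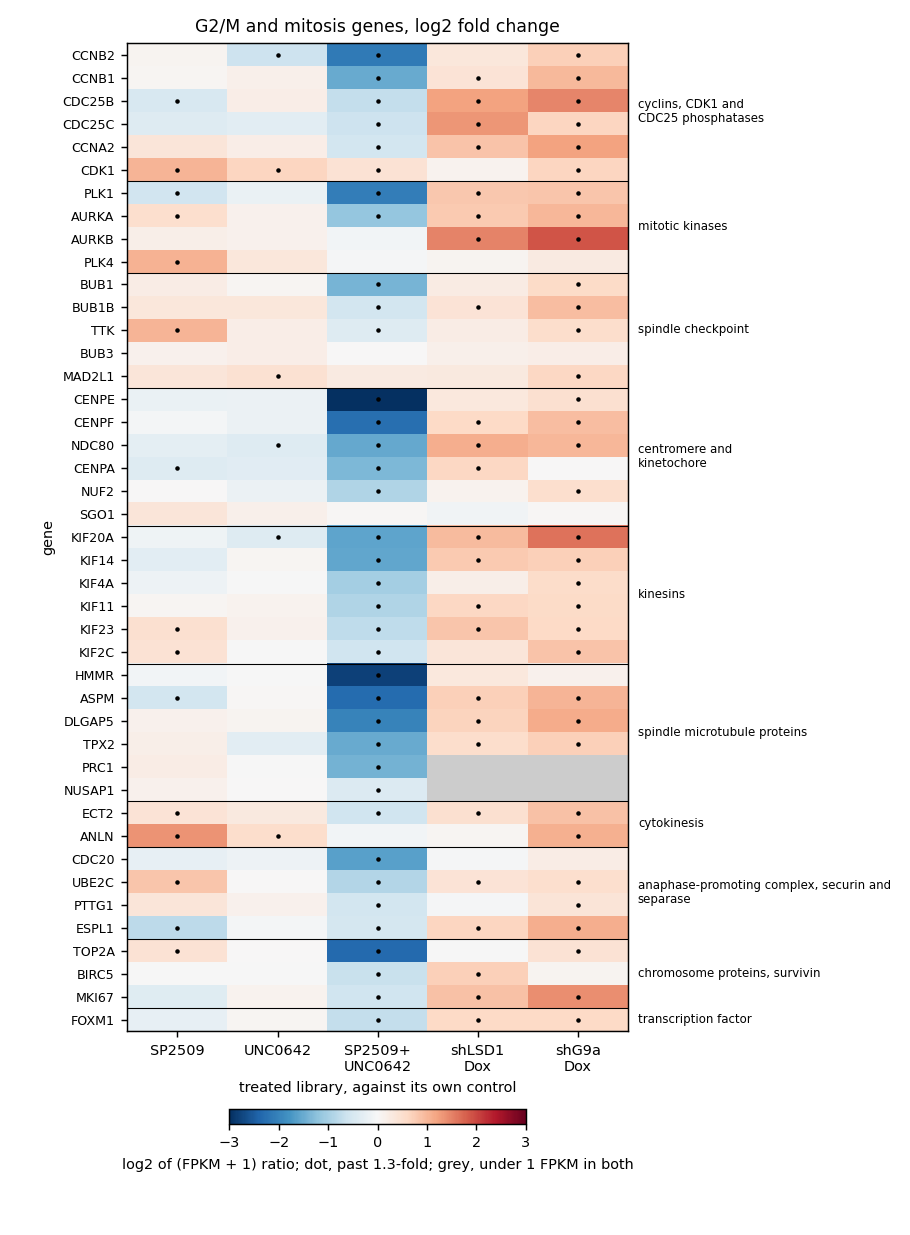
Log2 ratio of FPKM + 1 for the 43 G2/M and mitosis genes (rows, grouped by role) in each treated library against its own control (columns), with blue for lower, red for higher, a dot for a fold of at least 1.3 and grey for genes under 1 FPKM in both libraries. The combination column is blue in 36 rows past the fold, and the 2 Dox columns hold no gene lower past the fold.

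**Figure D2:**
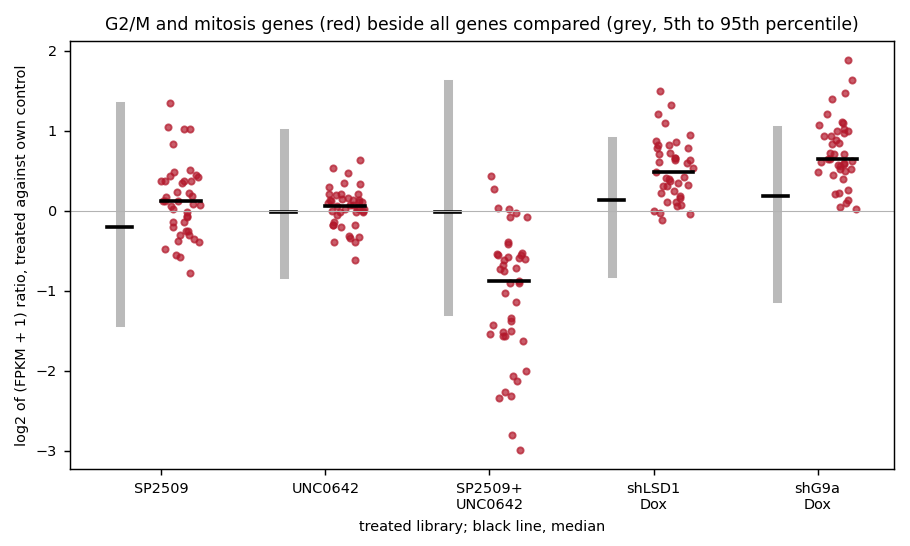
Log2 ratio of FPKM + 1 (vertical axis) for each of the G2/M and mitosis genes (red points) beside the 5th to 95th percentile of all genes compared (grey bars), in the 5 comparisons, with medians as black lines. The median of the red points is -0.88 for the combination and 0.65 for shG9a with Dox, where the medians of all genes are -0.02 and 0.18.

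The combination library had the lowest FPKM of the 4 inhibitor libraries for 38 of the 43 genes, a rank it took for 26.1% of all genes. The exceptions were CDK1, BUB3, MAD2L1 and SGO1, lowest with vehicle, and ESPL1, lowest with SP2509. The SP2509 library was the highest for 22 of the 43, a rank it took for 20.1% of all genes. Set directly against the SP2509 library, the combination library had 35 genes lower and 0 higher, against 24.8% and 41.8% of all genes, with a median log2 difference of -1.08. Against the UNC0642 library 37 were lower and 0 higher, against 27.1% and 27.7%, with a median of -0.90.

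Promoter sequences of 300 bases, from 250 bases before to 50 bases after the transcription start (RefSeq, GRCh38.p14), were found for 36 of the 43 genes. Where a gene had several windows, the first listed was used. TTTGAA, read on either strand (TTTGAA or TTCAAA), occurred in 25 of the 36 (69.4%). It occurred in 15.4% of 27305 promoters of the same length and in 9.73% of the 9099 promoters of genes compared between the combination and vehicle. CCAAT, read on either strand (CCAAT or ATTGG), occurred in 27 of the 36 (75.0%), in 35.7% of all promoters and in 37.1% of those of the genes compared. The 33 TTTGAA matches had a median distance of -25 bases from the start and 23 lay within 50 bases of it, and the 56 CCAAT matches had a median of -69 bases. A match of 6 or 5 letters is a description of the sequence and not a site of binding.

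Promoters are shown for the members at the ends of the range in the combination, CENPE, HMMR and TOP2A as the lowest and CDK1 as the only higher gene. They are also shown for CCNB2 and PLK1 as further strongly lower genes, and for AURKB, which had the highest log2 fold change in both knockdown comparisons. Capitals mark TTTGAA and CCAAT on either strand, and overlapping matches run together. The sequences read 5′ to 3′ along the strand of the gene.
CENPE (chr4:103198294-103198593, minus strand): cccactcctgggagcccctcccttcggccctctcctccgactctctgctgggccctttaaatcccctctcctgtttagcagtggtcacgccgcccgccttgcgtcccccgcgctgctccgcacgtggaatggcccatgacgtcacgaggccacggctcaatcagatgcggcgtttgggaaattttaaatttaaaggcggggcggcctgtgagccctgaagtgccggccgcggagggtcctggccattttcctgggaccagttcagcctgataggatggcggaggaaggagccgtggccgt
HMMR (chr5:163460382-163460681, plus strand): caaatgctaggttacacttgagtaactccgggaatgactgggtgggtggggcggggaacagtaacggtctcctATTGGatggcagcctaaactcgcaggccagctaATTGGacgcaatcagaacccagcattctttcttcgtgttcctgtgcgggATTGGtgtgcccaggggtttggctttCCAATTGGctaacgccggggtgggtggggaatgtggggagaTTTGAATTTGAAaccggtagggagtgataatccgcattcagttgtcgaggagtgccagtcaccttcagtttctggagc
TOP2A (chr17:40417847-40418146, minus strand): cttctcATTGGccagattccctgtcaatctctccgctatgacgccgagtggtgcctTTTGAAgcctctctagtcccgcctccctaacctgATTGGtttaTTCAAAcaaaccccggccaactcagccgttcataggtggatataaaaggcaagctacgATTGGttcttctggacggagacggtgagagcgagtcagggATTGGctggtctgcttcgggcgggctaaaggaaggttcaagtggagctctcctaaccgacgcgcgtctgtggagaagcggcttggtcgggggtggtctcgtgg
CCNB2 (chr15:59104896-59105195, plus strand): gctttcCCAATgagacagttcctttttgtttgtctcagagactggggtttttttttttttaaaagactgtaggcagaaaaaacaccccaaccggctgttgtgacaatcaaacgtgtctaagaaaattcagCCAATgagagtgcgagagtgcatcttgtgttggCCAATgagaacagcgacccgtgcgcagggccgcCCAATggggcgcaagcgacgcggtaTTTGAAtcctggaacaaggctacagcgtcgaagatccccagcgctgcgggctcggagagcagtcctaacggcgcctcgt
PLK1 (chr16:23678639-23678938, plus strand): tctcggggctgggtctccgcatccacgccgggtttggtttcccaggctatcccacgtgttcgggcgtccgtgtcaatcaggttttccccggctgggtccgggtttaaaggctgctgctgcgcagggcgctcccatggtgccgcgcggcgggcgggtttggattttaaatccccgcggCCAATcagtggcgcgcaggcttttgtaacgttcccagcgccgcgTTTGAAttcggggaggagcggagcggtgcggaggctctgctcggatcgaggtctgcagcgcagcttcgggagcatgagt
CDK1 (chr10:60778081-60778380, plus strand): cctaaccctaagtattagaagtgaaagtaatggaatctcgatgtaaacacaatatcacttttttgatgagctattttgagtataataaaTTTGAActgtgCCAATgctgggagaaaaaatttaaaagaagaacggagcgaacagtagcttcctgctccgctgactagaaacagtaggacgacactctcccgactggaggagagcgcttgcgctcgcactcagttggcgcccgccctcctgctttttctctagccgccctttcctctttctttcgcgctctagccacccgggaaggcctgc
AURKB (chr17:8210176-8210475, minus strand): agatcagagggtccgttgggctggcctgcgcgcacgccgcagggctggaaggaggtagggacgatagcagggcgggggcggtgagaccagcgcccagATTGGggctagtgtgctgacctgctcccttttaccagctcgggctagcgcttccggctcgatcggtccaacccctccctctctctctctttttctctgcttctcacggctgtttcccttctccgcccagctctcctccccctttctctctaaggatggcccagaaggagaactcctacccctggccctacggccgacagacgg
HMMR holds 2 TTTGAA matches side by side just before the start and 5 CCAAT matches, and TOP2A holds 2 and 4. CCNB2 has 4 CCAAT matches spaced through the window and 1 TTTGAA after the last of them. CDK1 has 1 of each, both in the distal part of the window. CENPE, the gene with the largest difference, holds neither motif in these letters, and the window used for AURKB holds 1 CCAAT match and no TTTGAA. The windows of HMMR, PLK1 and AURKB lie wholly inside the deposited spans of these genes. They do not cover the upstream ends given there, so the presence or absence of a motif holds for the windows only. The 25 genes with TTTGAA had a median log2 fold change of -1.03 in the combination and the 11 without it -0.62, and both groups spanned nearly the same range, from -2.81 to 0.43 and from -2.99 to 0.03. In the shG9a line the medians were 0.64 with and 0.85 without TTTGAA. For CCAAT the medians in the combination were -1.34 in the 27 genes with it and -0.62 in the 9 without. Those groups ran from -2.81 to 0.43 and from -2.99 to -0.03. In the shG9a line the medians were 0.64 with and 0.85 without CCAAT. Neither split was tested.

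**Figure D3:**
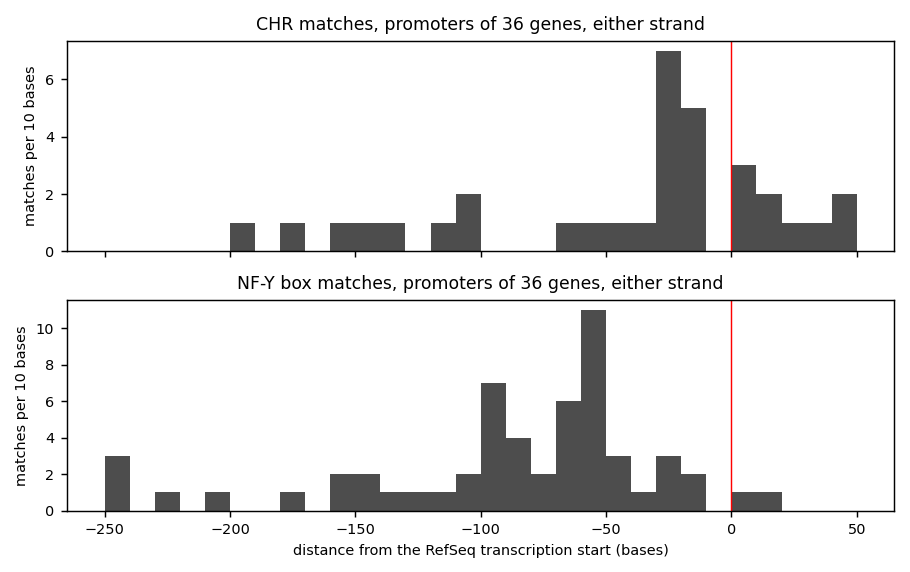
Number of matches per 10 bases (vertical axes) to the CHR letters TTTGAA (upper panel) and to the NF-Y box CCAAT (lower panel) on either strand, by distance in bases from the RefSeq transcription start (horizontal axis, red line at 0), over the promoters of 36 genes. TTTGAA matches are densest just before the start, with a median of -25, and CCAAT matches lie farther upstream, with a median of -69.

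The kinase and cyclins that open mitosis did not move together with the inhibitors. CDK1, the catalytic subunit, was at 21.3 FPKM in the vehicle library, 44.3 under SP2509, 33.7 under UNC0642 and 29.2 under both. CDK1 measured 9.21 FPKM without and 10.01 with Dox in the shLSD1 line, and 9.40 without and 15.2 with Dox in the shG9a line. All 3 treated inhibitor libraries were above vehicle, with ratios to vehicle of 2.08 (1.95 to 2.22) with SP2509, 1.58 (1.48 to 1.69) with UNC0642 and 1.37 (1.28 to 1.47) with both. CDK1 was the only gene of the 43 higher past the fold in the combination, where it was below both single agents.

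The mitotic cyclins were lower in the combination. CCNB1, the main B-type cyclin, was at 54.3 FPKM in the vehicle library, 56.5 under SP2509, 60.3 under UNC0642 and 18.4 under both. CCNB1 measured 21.8 FPKM without and 29.3 with Dox in the shLSD1 line, and 19.8 without and 39.6 with Dox in the shG9a line. Its ratio to vehicle was 0.339 (0.312 to 0.368) with both inhibitors, and its ratio with Dox was 1.35 (1.24 to 1.46) under shLSD1 and 2.00 (1.84 to 2.18) under shG9a. CCNB2, the Golgi-associated B-type cyclin, was at 29.5 FPKM in the vehicle library, 31.2 under SP2509, 19.0 under UNC0642 and 5.99 under both. CCNB2 measured 11.3 FPKM without and 14.5 with Dox in the shLSD1 line, and 10.8 without and 18.3 with Dox in the shG9a line. It was the member with the lowest fold change under UNC0642 alone, a log2 value of -0.61, and reached -2.13 with both inhibitors. CCNA2, cyclin A2, which acts in S phase as well as at mitotic entry, was at 29.3 FPKM in the vehicle library, 38.1 under SP2509, 34.1 under UNC0642 and 19.7 under both. CCNA2 measured 8.09 FPKM without and 15.5 with Dox in the shLSD1 line, and 8.41 without and 20.7 with Dox in the shG9a line. The 3 cyclins were lower to different extents, with log2 fold changes of -2.13 for CCNB2, -1.51 for CCNB1 and -0.55 for CCNA2.

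The CDC25 phosphatases remove the inhibitory phosphates from CDK1. CDC25B, which acts early in G2, was at 47.1 FPKM in the vehicle library, 33.5 under SP2509, 54.5 under UNC0642 and 28.3 under both. CDC25B measured 16.7 FPKM without and 39.7 with Dox in the shLSD1 line, and 16.4 without and 47.2 with Dox in the shG9a line. It was lower with SP2509, with a log2 value of -0.48, and among the 3 highest members with Dox in both lines, with 1.202 under shLSD1 and 1.47 under shG9a. CDC25C, which works in a feedback loop with CDK1 at mitotic entry, was at 5.64 FPKM in the vehicle library, 4.11 under SP2509, 4.29 under UNC0642 and 3.32 under both. CDC25C measured 1.28 FPKM without and 4.69 with Dox in the shLSD1 line, and 2.14 without and 3.91 with Dox in the shG9a line. Its 38 estimated reads without and 137 with Dox in the shLSD1 line are among the lowest counts behind a call here, and they give a ratio of 3.66 (2.54 to 5.38). These reads, and so the interval, rest on a solved gene length of 1669 bases in the genetic arm. In the pharmacological arm the solved length was 3047 bases, and the difference was not tested.

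FOXM1, the transcription factor that drives many of the other members in G2, was at 19.5 FPKM in the vehicle library, 16.1 under SP2509, 20.4 under UNC0642 and 11.4 under both. FOXM1 measured 4.74 FPKM without and 7.64 with Dox in the shLSD1 line, and 4.59 without and 7.52 with Dox in the shG9a line. It was lower in the combination (log2 -0.73), within the fold for each single inhibitor, and higher in both lines with Dox.

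Among the mitotic kinases, PLK1 and Aurora A were lower in the combination and Aurora B and PLK4 were not. PLK1, which acts at centrosomes, kinetochores and the midbody, was at 18.8 FPKM in the vehicle library, 12.2 under SP2509, 16.1 under UNC0642 and 3.71 under both. PLK1 measured 6.25 FPKM without and 11.7 with Dox in the shLSD1 line, and 6.44 without and 12.2 with Dox in the shG9a line. It was lower in the combination with a ratio of 0.197 (0.174 to 0.224) and also with SP2509 alone with 0.649 (0.598 to 0.703). AURKA, which encodes the centrosomal Aurora A, was at 29.5 FPKM in the vehicle library, 42.2 under SP2509, 32.2 under UNC0642 and 12.8 under both. AURKA measured 11.3 FPKM without and 20.1 with Dox in the shLSD1 line, and 12.2 without and 25.2 with Dox in the shG9a line. It was higher with SP2509 and in both lines with Dox, and its level in the combination was below the level in any other inhibitor library.

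AURKB, which encodes the kinase of the chromosomal passenger complex, was at 21.5 FPKM in the vehicle library, 24.3 under SP2509, 23.7 under UNC0642 and 20.3 under both. AURKB measured 5.55 FPKM without and 17.5 with Dox in the shLSD1 line, and 5.99 without and 24.7 with Dox in the shG9a line. The 4 inhibitor libraries lay close together, and the ratio of the combination to vehicle was 0.943 (0.851 to 1.04). With Dox its ratio was 3.15 (2.70 to 3.68) under shLSD1 and 4.13 (3.56 to 4.80) under shG9a. Its log2 fold changes of 1.496 and 1.88 were the largest of any member in both comparisons. By FPKM ratio, without the added constant, CDC25C was above AURKB under shLSD1, at 3.66 (2.54 to 5.38). PLK4, the kinase that starts centriole duplication, was at 8.23 FPKM in the vehicle library, 18.05 under SP2509, 10.8 under UNC0642 and 8.02 under both. PLK4 measured 2.87 FPKM without and 3.06 with Dox in the shLSD1 line, and 2.71 without and 3.45 with Dox in the shG9a line. It stood apart from PLK1, being higher with SP2509 (log2 1.04) and within the fold in the other 4 comparisons.

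**Figure D4:**
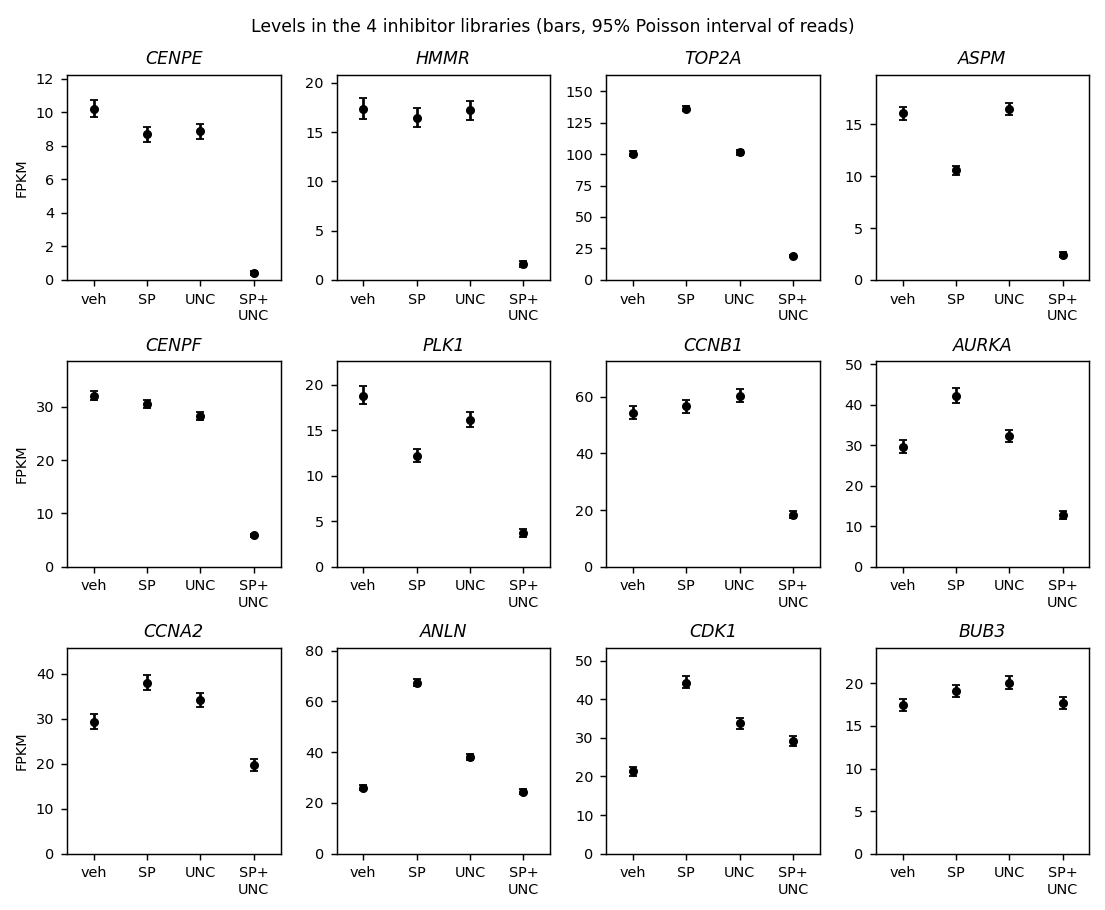
FPKM (vertical axes, from 0) of 12 genes in the vehicle (veh), SP2509 (SP), UNC0642 (UNC) and combination (SP+UNC) libraries, as points with 95% Poisson intervals of the estimated reads, which cover counting error only. CENPE, HMMR, TOP2A, ASPM, CENPF, PLK1, CCNB1 and AURKA have their lowest point well below the others in the combination, whereas CDK1 and ANLN are highest with SP2509 and BUB3 is nearly level.

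Spindle checkpoint messages were unequal. BUB1, a checkpoint kinase that also marks centromeric chromatin, was at 18.7 FPKM in the vehicle library, 22.0 under SP2509, 19.5 under UNC0642 and 6.53 under both. BUB1 measured 5.40 FPKM without and 6.60 with Dox in the shLSD1 line, and 5.05 without and 7.96 with Dox in the shG9a line. It was the lowest of the 5 checkpoint genes in the combination, with a log2 fold change of -1.39. BUB3, the adaptor that brings BUB1 and BUBR1 to kinetochores, was at 17.5 FPKM in the vehicle library, 19.1 under SP2509, 20.1 under UNC0642 and 17.7 under both. BUB3 measured 10.97 FPKM without and 12.4 with Dox in the shLSD1 line, and 11.4 without and 13.3 with Dox in the shG9a line. It was within the fold in all 5 comparisons, with log2 values from 0.02 to 0.20. MAD2L1, which encodes MAD2, the subunit that captures CDC20, was at 12.6 FPKM in the vehicle library, 16.5 under SP2509, 17.8 under UNC0642 and 15.4 under both. MAD2L1 measured 4.204 FPKM without and 5.42 with Dox in the shLSD1 line, and 4.63 without and 7.67 with Dox in the shG9a line. It was lowest with vehicle and was higher past the fold with UNC0642 (log2 0.47) and in the shG9a line (log2 0.62). BUB1B and TTK, a checkpoint pseudokinase and kinase, were lower in the combination with log2 values of -0.54 and -0.40, and TTK was higher with SP2509, at 1.02.

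The lowest log2 fold change of any member was that of a kinetochore gene. CENPE, the kinesin that brings chromosomes to the spindle equator, was at 10.2 FPKM in the vehicle library, 8.69 under SP2509, 8.87 under UNC0642 and 0.408 under both. CENPE measured 1.65 FPKM without and 2.29 with Dox in the shLSD1 line, and 1.45 without and 2.42 with Dox in the shG9a line. The combination library held 65 estimated reads of CENPE where the vehicle library held 1510, a ratio of 0.0399 (0.0307 to 0.0512), and both single-agent libraries stayed within the fold. CENPF, a large kinetochore and nuclear matrix protein that accumulates in G2, was at 32.1 FPKM in the vehicle library, 30.6 under SP2509, 28.2 under UNC0642 and 5.89 under both. CENPF measured 5.56 FPKM without and 8.98 with Dox in the shLSD1 line, and 5.79 without and 11.9 with Dox in the shG9a line. Its ratio was 0.184 (0.172 to 0.196) in the combination, and with either agent alone it was within the fold. NDC80, the microtubule-binding subunit of the NDC80 complex, was at 63.0 FPKM in the vehicle library, 50.9 under SP2509, 47.8 under UNC0642 and 21.0 under both. NDC80 measured 14.8 FPKM without and 32.9 with Dox in the shLSD1 line, and 15.0 without and 30.9 with Dox in the shG9a line. It was lower with UNC0642 alone, lower still with both, and higher in both lines with Dox. NUF2, its partner in the complex, had a log2 fold change of -0.90 in the combination where NDC80 had -1.54, and of 0.11 and 1.10 in the shLSD1 line. CENPA, the centromeric histone H3, was lower in the combination at -1.34 and higher under shLSD1 at 0.63, but stood at 0.02 under shG9a. SGO1, which protects centromeric cohesin, stayed within the fold in all 5 comparisons, on 63 to 245 estimated reads a library.

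All 6 genes grouped here as kinesins, which leave out the kinetochore kinesin CENPE, were lower in the combination, against 31.7% of all genes. Their log2 fold changes ran from -1.57 to -0.61. In the shG9a line all 6 were higher, against 32.9% of all genes. KIF11, the motor that pushes spindle poles apart, was at 19.9 FPKM in the vehicle library, 20.9 under SP2509, 21.5 under UNC0642 and 10.1 under both. KIF11 measured 4.99 FPKM without and 8.27 with Dox in the shLSD1 line, and 5.29 without and 8.44 with Dox in the shG9a line. The 3 other inhibitor libraries lay close together, and both Dox libraries were above their controls. KIF20A, which acts in cytokinesis, was at 26.7 FPKM in the vehicle library, 24.2 under SP2509, 20.2 under UNC0642 and 8.31 under both. KIF20A measured 7.61 FPKM without and 15.6 with Dox in the shLSD1 line, and 7.94 without and 26.8 with Dox in the shG9a line. With Dox its ratio was 2.05 (1.85 to 2.28) under shLSD1 and 3.37 (3.06 to 3.72) under shG9a, where it was the largest of the members after AURKB. KIF23, the kinesin of centralspindlin, and KIF2C, a microtubule depolymerase, were higher with SP2509 (log2 0.48 and 0.44) and lower in the combination (-0.76 and -0.61). KIF14 and KIF4A were within the fold with each single agent and at -1.57 and -1.03 in the combination.

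The spindle microtubule proteins were the role with the lowest median in the combination, -1.76 over 6 genes. All 6 were lower, against 31.7% of all genes. HMMR, a hyaluronan receptor that binds spindle microtubules, was at 17.4 FPKM in the vehicle library, 16.4 under SP2509, 17.2 under UNC0642 and 1.63 under both. HMMR measured 6.48 FPKM without and 8.36 with Dox in the shLSD1 line, and 4.95 without and 5.50 with Dox in the shG9a line. The 3 other inhibitor libraries lay close together, and the combination had 108 estimated reads against 1070 with vehicle, a ratio of 0.0937 (0.0761 to 0.114). HMMR was within the fold in both Dox comparisons. ASPM, a spindle pole protein, was at 16.1 FPKM in the vehicle library, 10.6 under SP2509, 16.5 under UNC0642 and 2.43 under both. ASPM measured 2.56 FPKM without and 4.79 with Dox in the shLSD1 line, and 2.57 without and 6.24 with Dox in the shG9a line. Its ratio to vehicle was 0.658 (0.621 to 0.697) with SP2509 and 0.151 (0.137 to 0.167) with both. TPX2, which activates Aurora A on the spindle, was at 83.2 FPKM in the vehicle library, 94.7 under SP2509, 66.5 under UNC0642 and 28.3 under both. TPX2 measured 22.5 FPKM without and 33.03 with Dox in the shLSD1 line, and 22.2 without and 37.3 with Dox in the shG9a line. DLGAP5, which stabilises kinetochore fibres, had a log2 fold change of -2.00 in the combination and of 1.11 in the shG9a line.

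PRC1, which bundles antiparallel microtubules of the central spindle, and NUSAP1, which crosslinks spindle microtubules, were lower in the combination with log2 values of -1.43 and -0.42. Both were abundant in the pharmacological arm, at 32.9 and 46.2 FPKM with vehicle, but in the genetic arm PRC1 had 1 to 7 estimated reads and NUSAP1 14 to 29 in each library. A gene on the same strand, AC068831.7 (chromosome 15, 90966190 to 91022566, GRCh38), overlaps PRC1 and was listed in the genetic arm only, with 48 to 81 estimated reads. No such gene was found over NUSAP1, and why the counts of both genes differ between arms was not tested.

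Both cytokinesis genes were higher with SP2509, against 21.0% of all genes. ANLN, which encodes the contractile ring scaffold anillin, was at 26.0 FPKM in the vehicle library, 67.4 under SP2509, 38.0 under UNC0642 and 24.5 under both. ANLN measured 9.18 FPKM without and 9.60 with Dox in the shLSD1 line, and 7.96 without and 17.8 with Dox in the shG9a line. Its ratio of 2.59 (2.47 to 2.71) to vehicle was the largest of the members with SP2509, and the combination stood at 0.940 (0.889 to 0.994). ECT2, the exchange factor that activates RhoA at the equator, was higher with SP2509 (log2 0.42), lower in the combination (-0.59) and higher in both lines with Dox (0.48 and 0.88).

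The 4 exit genes of the APC/C pathway were all lower in the combination, against 31.7% of all genes. CDC20, the coactivator released by the checkpoint, was at 105 FPKM in the vehicle library, 87.9 under SP2509, 95.3 under UNC0642 and 33.3 under both. CDC20 measured 55.1 FPKM without and 54.1 with Dox in the shLSD1 line, and 55.9 without and 65.2 with Dox in the shG9a line. It was the most abundant member with vehicle and was within the fold with each single agent, and it had a log2 value of -1.63 with both. UBE2C, the ubiquitin-conjugating enzyme of the APC/C, was at 72.3 FPKM in the vehicle library, 129 under SP2509, 73.2 under UNC0642 and 38.8 under both. UBE2C measured 43.1 FPKM without and 57.9 with Dox in the shLSD1 line, and 43.5 without and 62.5 with Dox in the shG9a line. It was higher with SP2509 alone and lower in the combination. PTTG1, securin, was at 46.4 FPKM in the vehicle library, 60.0 under SP2509, 50.9 under UNC0642 and 31.1 under both. PTTG1 measured 27.0 FPKM without and 26.3 with Dox in the shLSD1 line, and 26.9 without and 35.5 with Dox in the shG9a line. It was lower in the combination (log2 -0.56) and higher under shG9a (0.39), with the other comparisons within the fold. ESPL1, separase, was at 7.51 FPKM in the vehicle library, 3.96 under SP2509, 7.19 under UNC0642 and 4.88 under both. ESPL1 measured 1.88 FPKM without and 3.53 with Dox in the shLSD1 line, and 1.88 without and 5.16 with Dox in the shG9a line. It was the lowest member with SP2509, with a log2 value of -0.78, and the only one with its lowest inhibitor level there.

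The 3 chromosome proteins were lower in the combination as well, against 31.7% of all genes. TOP2A, the topoisomerase that untangles sister chromatids, was at 100.2 FPKM in the vehicle library, 136 under SP2509, 101 under UNC0642 and 19.0 under both. TOP2A measured 30.7 FPKM without and 30.5 with Dox in the shLSD1 line, and 29.0 without and 39.8 with Dox in the shG9a line. It had more estimated reads than any other member in the vehicle library, 10101 against 2064 with both, a ratio of 0.190 (0.181 to 0.199), while SP2509 alone gave 1.36 (1.32 to 1.39). MKI67, which encodes the Ki-67 protein that coats mitotic chromosomes and marks cycling cells, was at 20.5 FPKM in the vehicle library, 15.8 under SP2509, 22.2 under UNC0642 and 13.3 under both. MKI67 measured 3.17 FPKM without and 6.62 with Dox in the shLSD1 line, and 3.41 without and 10.6 with Dox in the shG9a line. Its ratio with Dox was 2.09 (1.91 to 2.29) under shLSD1 and 3.12 (2.87 to 3.40) under shG9a. BIRC5, survivin, a passenger complex subunit, was at 19.5 FPKM in the vehicle library, 19.2 under SP2509, 19.4 under UNC0642 and 11.8 under both. BIRC5 measured 7.85 FPKM without and 13.5 with Dox in the shLSD1 line, and 8.07 without and 8.67 with Dox in the shG9a line. It passed the fold under shLSD1 and stayed within it under shG9a, and the difference between the 2 lines was not tested.

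Calls were also set side by side for the knockdown of an enzyme and its inhibitor. Of 41 genes, AURKA, ECT2, KIF23 and UBE2C were higher both under shLSD1 and with SP2509 (4 genes, where 2.53% of all genes were), and ASPM, CDC25B, CENPA, ESPL1 and PLK1 were higher under shLSD1 and lower with SP2509 (5 genes, against 14.4%). ANLN, CDK1 and MAD2L1 were higher under shG9a and with UNC0642 (3 genes, against 4.79%), and CCNB2, KIF20A and NDC80 were higher under shG9a and lower with UNC0642 (3 genes, against 4.1%). The combination shares no control library with the hairpin lines either. Of 41 genes, 23 were higher under shLSD1 and lower with both inhibitors, against 8.13% of 11950 genes, and 30 were higher under shG9a and lower with both, against 10.3% of 12001 genes. CDK1 alone was higher both under shG9a and with both inhibitors, against 8.53% of all genes.

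**Figure D5:**
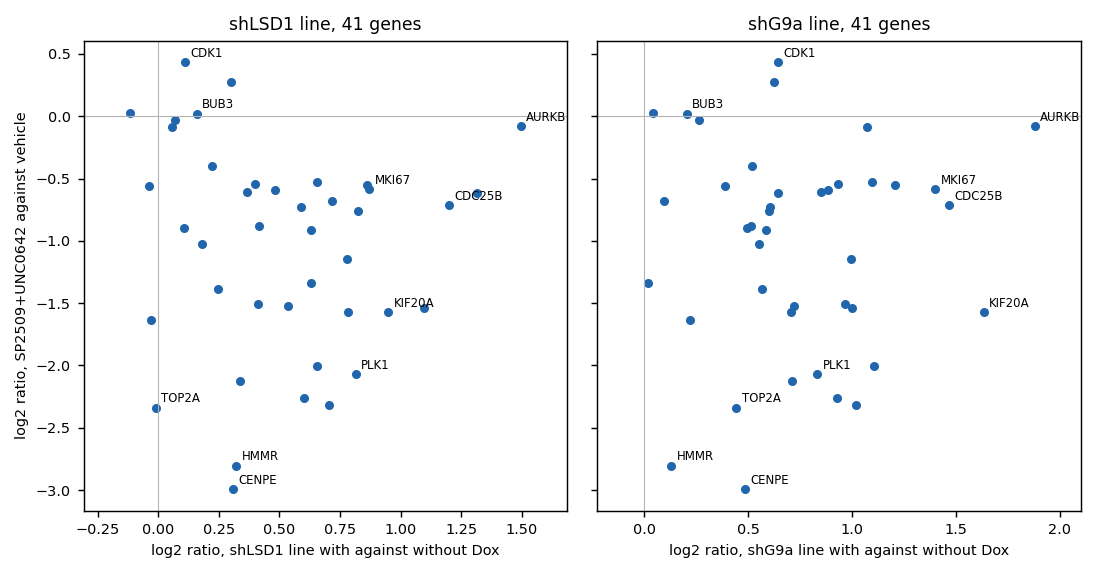
Log2 ratio of FPKM + 1 for SP2509+UNC0642 against vehicle (vertical axis) and for Dox against no Dox (horizontal axis) in the shLSD1 line (left) and the shG9a line (right), 1 point for each of 41 genes. Most points lie to the right of 0 and below 0, and 23 and 30 of them are past the fold in both directions, while AURKB lies far right at a combination value of -0.08.

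Genes that regulate or accompany the 43 were read from lists of their own, by count. The MuvB, B-Myb and DREAM genes had 2 higher and 2 lower of 11 compared in the combination, against 31.4% and 31.7% of all genes, and 6 higher and 0 lower under shG9a, against 32.9% and 17.6%. MYBL2, B-Myb, was at 69.9 FPKM in the vehicle library, 74.2 under SP2509, 97.1 under UNC0642 and 143 under both, and RBL2, a pocket protein of DREAM, at 11.6 FPKM in the vehicle library, 13.1 under SP2509, 8.90 under UNC0642 and 3.01 under both. In the combination B-Myb was higher (log2 1.02) and RBL2 lower (-1.66) beside lower mitotic messages. FOXM1 stood at -0.73.

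Inhibitors of mitotic entry had 7 of 8 higher and 0 lower with SP2509, against 21.0% and 39.9% of all genes, and 5 of 9 higher and 1 lower in the combination, against 31.4% and 31.7%. CDKN1A, the CDK inhibitor p21, was at 10.8 FPKM in the vehicle library, 53.0 under SP2509, 38.0 under UNC0642 and 151 under both. CDKN1A measured 41.3 FPKM without and 37.1 with Dox in the shLSD1 line, and 45.3 without and 26.0 with Dox in the shG9a line. All 3 treated inhibitor libraries were above vehicle. GADD45A, a stress-induced inhibitor of CDK1, was at 30.4 FPKM in the vehicle library, 226 under SP2509, 23.7 under UNC0642 and 57.5 under both. GADD45A measured 40.9 FPKM without and 19.99 with Dox in the shLSD1 line, and 45.6 without and 10.2 with Dox in the shG9a line. CDKN1A was highest with both inhibitors and GADD45A with SP2509 alone, and both were lower past the fold in the shG9a line with Dox. The list as a whole was split there, with 4 of 9 higher and 4 lower, against 32.9% and 17.6% of all genes. SFN was the highest of it under shG9a, with a log2 value of 1.57. In the shLSD1 line 2 of 8 were higher and 2 lower, against 24.8% and 12.3%.

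Of the Greatwall and PP2A-B55 genes, which set the phosphatase opposing CDK1, 3 of 7 were higher and 0 lower in the combination, against 31.4% higher and 31.7% lower among all genes. PPP2R2A had log2 values of 0.79 there and -1.26 under shG9a. Among 17 APC/C subunits and inhibitors, 8 were lower and 1 higher in the combination, against 31.7% and 31.4% of all genes. Under shG9a 7 of 16 were higher and 0 lower, against 32.9% and 17.6% of all genes. With SP2509 7 were lower and 1 higher, where 39.9% of all genes were lower and 21.0% higher, so the lower count was near that of all genes. FBXO5, the APC/C inhibitor EMI1, had log2 values of -0.87 with SP2509, -0.01 in the combination and 1.04 and 0.997 under shLSD1 and shG9a. Of 8 condensin genes, 4 were lower and 1 higher in the combination, against 31.7% and 31.4%, and 7 were higher under shG9a, against 32.9%. NCAPD2 had log2 values of -1.45 and 0.77 in these comparisons. Of 9 cohesin genes, 7 were lower and 0 higher in the combination, also against 31.7% and 31.4%, with STAG1 at -1.04 and PDS5A at -1.18.

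Of the other kinetochore genes, 11 of 30 were lower and 6 higher in the combination, against 31.7% and 31.4% of all genes, so the lower count was near that of all genes. Under shLSD1 16 of 29 were higher, against 24.8%, and under shG9a 17 of 30, against 32.9%, and 0 were lower in either line. SPC25, a subunit of the NDC80 complex, had log2 values of 0.04 in the combination, 1.69 under shLSD1 and 1.88 under shG9a, and so differed from NDC80 in the combination. Of the passenger complex, CDCA8, borealin, had -0.44 and INCENP 0.15 in the combination, and both were higher under shG9a.

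In the lists of the earlier cycle phases more genes were higher than lower in the combination. Of 28 replication genes, 14 were higher and 5 lower there, against 31.4% and 31.7% of all genes. With UNC0642 12 were higher and 1 lower, against 18.2% and 16.9%, and with SP2509 1 was higher and 15 lower, against 21.0% and 39.9%. FEN1, the flap endonuclease of lagging strand synthesis, was at 16.2 FPKM in the vehicle library, 5.19 under SP2509, 31.8 under UNC0642 and 62.1 under both. RRM2, a subunit of ribonucleotide reductase, was at 13.4 FPKM in the vehicle library, 6.31 under SP2509, 20.3 under UNC0642 and 34.0 under both. Both were lowest with SP2509 and highest with the combination. Of 14 G1/S genes, 9 were higher and 3 lower in the combination, and of 13 with SP2509 0 were higher and 9 lower, beside the same shares of all genes. CCNE1, cyclin E1, was at 1.002 FPKM in the vehicle library, 0.308 under SP2509, 3.46 under UNC0642 and 7.64 under both. CDC25A, the CDC25 phosphatase of S phase entry, was at 4.06 FPKM in the vehicle library, 1.24 under SP2509, 6.31 under UNC0642 and 16.4 under both. In the genetic arm 15 of 27 replication genes were higher under shLSD1, against 24.8% of all genes, and 23 of 28 under shG9a, against 32.9%, with 0 lower in either line. Of 13 G1/S genes, 6 were higher and 1 lower under shLSD1, against 24.8% and 12.3% of all genes. Under shG9a 9 of 13 were higher and 1 lower, against 32.9% and 17.6%.

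Gene length was set beside the combination result. Over all genes the median log2 fold change in the combination was 0.11 in the shortest tertile by gene length, 0.004 in the middle tertile and -0.12 in the longest, and the members had medians of -1.11, -0.73 and -1.07 in these tertiles, over 8, 23 and 12 genes. Some members overlap a neighbour with over 100 estimated reads in a library, as CCNA2 does EXOSC9, CDC25C FAM53C, CENPA SLC35F6, KIF20A CDC23 and BRD8, KIF4A PDZD11, ANLN KIAA0895, NUF2 RGS5 (111 reads in the combination library), and FOXM1 RHNO1 and ITFG2. SLC35F6 lies on the same strand as CENPA, and the other neighbours named lie on the opposite strand. It had 1673 estimated reads with vehicle and 604 in the combination. With and without Dox it had 1800 and 1926 in the shLSD1 line and 870 and 1772 in the shG9a line. Use of the strand in counting is not given in the sources used here, and would not separate CENPA from SLC35F6. How reads in such overlaps were shared was not tested.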

How the data were processed

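RNA of 8 Kyse510 libraries was sequenced as paired reads of 150 bases. According to the methods of the study, low-quality and adapter reads were removed and the rest mapped to GRCh38, and the authors deposited FPKM values per gene, in 1 table per arm. The aligner and read counter are not given in the sources used here. Groups were taken from the sample labels. Each treated library was compared with its own control on log2(FPKM + 1), among genes with at least 1 FPKM in 1 of the 2 libraries, with a fold of 1.3 as the threshold, after the fold used by the study. Library totals were estimated from the FPKM steps of genes with 1 exon, and gene lengths were then solved so that values became whole reads, which assigned 99.6% to 99.8% of the totals to genes. Read intervals cover counting error only. The solving step was also run on reads simulated from its own lengths and totals, which cannot show that a solved length is right. The genes named are a list of central members, the 3 members with the largest change in each direction in each comparison, and members described by role. From each other list a few of the genes with the largest summed change were named. The members and lists were chosen with earlier results of these data known. The comparisons of the combination with each single agent and with the hairpin lines were added after the data were seen. Alternatives were a pseudocount of 0.1, no filter, a minimum of 5 FPKM, a fold of 2, centring on the median ratio, rescaling to TPM, an added binomial p under 0.05 on reads, and a control averaged over both uninduced libraries. Python 3.11.15 with pandas 2.3.3, scipy 1.17.1 and matplotlib 3.10.9 was used. The result of a single gene of the cell type lists is left out, and the other genes of its list are reported.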

Additional observations from a re-analysis of the deposited data

How the results depend on the processing

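The medians of the members kept their sign under every alternative run, from 0.10 to 0.21 with SP2509, 0.05 to 0.11 with UNC0642, -0.92 to -0.88 in the combination, 0.37 to 0.54 under shLSD1 and 0.50 to 0.74 under shG9a. With a fold threshold of 2, 4 members were higher and 0 lower with SP2509, 0 higher and 0 lower with UNC0642, 0 higher and 19 lower in the combination, 4 higher under shLSD1 and 9 under shG9a, and 0 were changed the same way by the hairpin and the inhibitor of either enzyme. Rescaled to TPM, 5 members were higher and 1 lower with UNC0642, below the shares of all genes (26.6% and 21.1%). With SP2509, 15 were higher and 4 lower both when rescaled to TPM and when centred, against 10 and 5 as reported, where all genes were at 25.8% higher and 42.5% lower in TPM. The other counts stayed within 1.5 times those reported. Of the log2 fold changes of single members past the fold, 22 shifted beyond their counting error when centred on the median ratio and 94 did not. With a pseudocount of 0.1, 14 shifted and 102 did not, and in TPM 10 shifted and 106 did not. The lowest estimated reads behind a compared member were 38 for CDC25C, 63 for SGO1 and 65 for CENPE. No paired analysis was possible because each condition has 1 library and the labels carry no replicate numbers, and for the same reason no library could be left out.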
